A study of Homo sapiens with 36 samples.

Results

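Cadherins, protocadherins and catenins are the genes described here, followed through 2 prostate cancer cell lines with and without androgen. The members are the protein coding genes of the deposited count table whose symbol starts with CDH, PCDH or CTNN followed by a digit, A, B or D, with 1 core catenin gene, the cadherin-related CDHR genes, CTNNBIP1, CTNNBL1 and CTNNAL1 left out. That gave 72 of the 61805 genes in the table: 23 cadherins, 13 protocadherins outside the gene clusters, 15 clustered alpha protocadherins, 16 clustered beta protocadherins and 5 catenins. The choice rests on gene names and uses no measured value.

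Polyadenylated RNA was sequenced from LNCaP, an established prostate cancer line that depends on androgen, and from 42D, a subline of LNCaP that resists enzalutamide. The title of the series asks how loss of TRIM33 bears on androgen receptor output. The labels do not expand the names of the lines. From the title, sgT33-5 was taken to be a guide RNA that targets TRIM33, and NT3 its non-targeting control. The lines sgT33-5_MC_C2 and sgT33-5_MC_F2 are called C2 and F2. All cells were kept for 3 days in medium with 5% charcoal-stripped serum, which is low in steroid hormones, and then received R1881, a synthetic androgen, or DMSO, its solvent. The 12 groups of 3 libraries were 42D sgT33-5 with 5 nM R1881 for 6 h or with DMSO for 6 h, and 42D NT3, LNCaP sgT33-5, LNCaP C2, LNCaP F2 and LNCaP NT3 with each of these treatments. The labels do not say whether C2 and F2 are single clones, nor whether the 3 libraries of a group came from separate cultures, so p-values measure only the spread between these samples.

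Classical cadherins hold neighbouring cells together through calcium-dependent extracellular repeats. Inside the cell, delta-catenins stabilise them at the membrane and alpha-catenins link them to the actin cytoskeleton. Protocadherins are a related family best known from the nervous system, where the clustered genes give each neuron its own set of surface proteins. In the prostate, luminal epithelial cells carry E-cadherin, and exchange of E-cadherin for N-cadherin is a textbook feature of epithelial cells that turn mesenchymal.

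The libraries held 13900744 to 19793268 counts, and 34 to 46 of the 72 members had at least 1 count in a library. TRIM33 itself stood at 34.1 to 53.2 CPM, the count scaled to the library total, in the LNCaP guide lines with DMSO, against 88.9 to 95.6 CPM in LNCaP NT3, and at 54.8 to 59.3 CPM in 42D sgT33-5, against 79.3 to 88.9 CPM in 42D NT3. Markers of luminal prostate epithelium summed to 2277 to 2532 CPM in 42D and 2887 to 5934 CPM in LNCaP. In NT3 with DMSO, KLK3 averaged 123 CPM in 42D and 1368 CPM in LNCaP and FOLH1 986 CPM in 42D and 1847 CPM in LNCaP, whereas EPCAM averaged 194 CPM in 42D and 108 CPM in LNCaP. Leukocyte markers stayed under 1 CPM in sum in every library. Fibroblast markers summed to 20.6 to 33.2 CPM in 42D and 21.7 to 37.7 CPM in LNCaP. Mitochondrial genes took 2.14% and 2.40% of the counts in LNCaP sgT33-5 DMSO replicate 3 and R1881 replicate 1, where the remaining LNCaP libraries had 4.16% to 6.66%.

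Most members were silent or nearly so. Of the 72, 12 reached a mean of 10 CPM in at least 1 group, 10 reached between 1 and 10 CPM, and 50 stayed under 1 CPM in all groups. CDH11 and CDH16 had no count in any of the 36 libraries, 6 further members had none in the 24 LNCaP libraries, and 4 further members had none in the 12 libraries of 42D. A filter on low counts left 18 members tested in LNCaP, 22 in 42D and 25 across both cell lines. The tests therefore bear on the expressed minority of the family.

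The epithelial adhesion pair dominated. Per kilobase of merged exon length, a scale on which genes can be compared, CDH1, which encodes E-cadherin, stood at 80.4 CPM per kb in 42D NT3 with DMSO and 91.2 CPM per kb in LNCaP NT3 with DMSO. CTNNA1, the alpha-catenin of epithelia, followed at 42.0 CPM per kb in 42D NT3 and 50.4 CPM per kb in LNCaP NT3. In 42D NT3 the next members on that scale were PCDH1 at 11.3 CPM per kb, PCDH7 and CDH24 at 4.71 CPM per kb each, and CTNND2 at 3.52 CPM per kb. In LNCaP NT3 they were CDH24 at 4.13 CPM per kb, PCDHB5 at 3.49 CPM per kb and PCDH1 at 3.24 CPM per kb. On the CPM scale CDH1 ranged over 358 to 529 CPM in the 42D libraries and 466 to 647 CPM in the LNCaP libraries. CTNNA1 ranged over 358 to 393 CPM in 42D and 415 to 474 CPM in LNCaP, and passed no test of R1881 against DMSO or of a guide line against NT3. CDH24, a type II cadherin, ranged over 17.1 to 19.8 CPM in 42D and 10.8 to 21.6 CPM in LNCaP and likewise passed none of those tests in the main fit. With the replicate number as a block, edgeR's test called it higher in C2 than in NT3 with DMSO. The log2 fold change was 0.411 (adjusted p = 0.00654, against 0.112 without the block).

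The other classical markers were near 0. CDH2, which encodes N-cadherin, stood at 0.132 to 0.845 CPM in the 42D libraries and had no count in the 24 LNCaP libraries. CDH3, the P-cadherin of basal epithelium, stood at 0 to 0.0628 CPM in 42D and 0 to 0.167 CPM in LNCaP. PCDH9, a protocadherin of neurons, stood at 0 to 0.0609 CPM in 42D and 0 to 0.318 CPM in LNCaP. For CDH3 and PCDH9 these values are too low to read an order among groups.

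**Figure D1:**
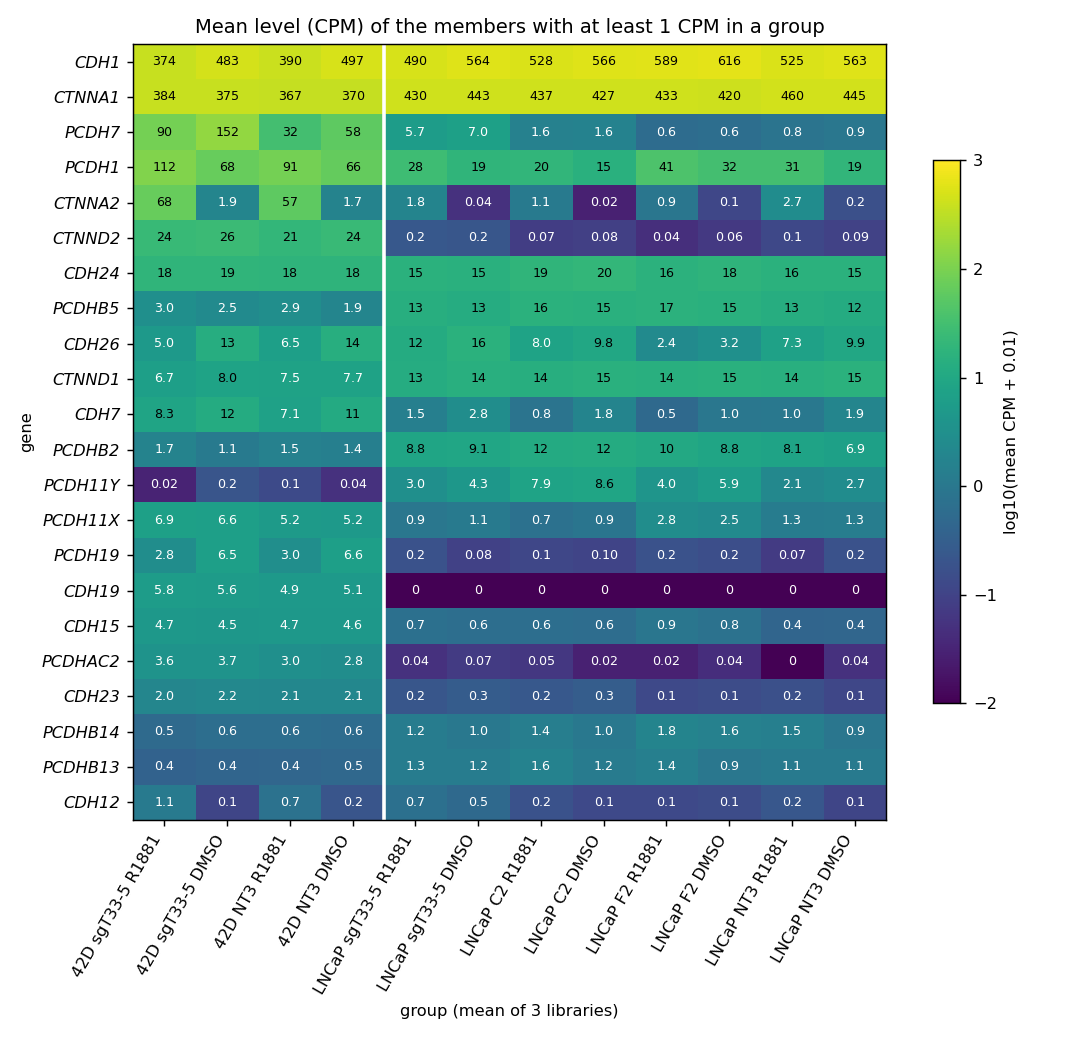
Mean level of the members that reached 1 CPM in a group (rows) in the 12 groups (columns), coloured by log10(CPM + 0.01) with the mean CPM of 3 libraries printed in each cell, 42D left of LNCaP and R1881 left of DMSO. CDH1 and CTNNA1 were high in all groups, whereas CTNND2, CDH19 and PCDH7 split the cell lines and CTNNA2 stood higher with R1881 in each line.

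R1881 was then compared with DMSO within each line. The member that moved furthest was CTNNA2 (ENSG00000066032, chromosome 2, 79185231 to 80648861 on GRCh38), the alpha-catenin of neurons. In 42D sgT33-5 it stood at 67.6, 71.6 and 65.4 CPM with R1881, against 1.84, 1.79 and 1.93 CPM with DMSO. In 42D NT3 the values were 56.0, 60.8 and 53.0 CPM with R1881, against 1.97, 1.46 and 1.81 CPM with DMSO. All R1881 libraries of 42D lay far above all DMSO libraries. The log2 fold change was 5.20 (SE 0.1) in 42D sgT33-5, a 36.7-fold rise with an adjusted p of 5.32e-20 in edgeR's quasi-likelihood test, and 5.02 (SE 0.104, adjusted p = 2.41e-19) in 42D NT3, a 32.5-fold rise.

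In LNCaP the gene was almost silent without androgen. It stood at 1.53, 1.51 and 2.41 CPM with R1881 in LNCaP sgT33-5, against 0, 0 and 0.125 CPM with DMSO. In C2 it stood at 1.02, 0.963 and 1.41 CPM with R1881, against 0, 0.0558 and 0 CPM with DMSO. In F2 it stood at 1.10, 0.983 and 0.618 CPM with R1881, against 0, 0.163 and 0.161 CPM with DMSO. The groups of these guide lines did not overlap, and the same held in NT3. There it stood at 2.36, 2.92 and 2.67 CPM with R1881, against 0.117, 0.215 and 0.129 CPM with DMSO. Summed over 3 libraries, LNCaP sgT33-5 had 86 counts with R1881 and 2 with DMSO, a ratio of 44.2 after scaling with a 95% counting interval of 11.9 to 371. C2 had 64 counts with R1881 and 1 with DMSO, a ratio of 59.2 with an interval of 10.3 to 2376. These intervals cover counting error only. The rise was 7.59-fold in F2 (log2 fold change 2.92, SE 0.532, adjusted p = 0.000277) and 16.7-fold in NT3 (4.06, SE 0.427, adjusted p = 4.66e-08) in edgeR's test. The fitted log2 fold change was 5.22 in LNCaP sgT33-5 and 5.42 in C2, and it was 7.93 in LNCaP sgT33-5 without DMSO replicate 3, and 7.26 in C2 without DMSO replicate 2, each the single DMSO library of its line that had any count. Such a value against a group at 0 depends on the prior count of the fit and is no bound. CTNNA2 was thus called higher with R1881 in all 6 lines. In LNCaP it passed the filter on low counts only through libraries with R1881, where it was higher. The LNCaP calls and their p-values are therefore a description. LRRTM1, a neuronal gene that lies inside CTNNA2, had group means of 0.614 to 1.08 CPM in 42D and no count in LNCaP.

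The start regions of CTNNA2 and CDH26, the members that changed most in opposite directions under R1881 among those called in both cell lines, are shown for their sequence. They are RefSeq windows on GRCh38.p14, from 250 bases before to 50 bases after an annotated start, read on the plus strand at chr2:79185127-79185426 and chr2:79512801-79513100 for 2 of the 4 starts of CTNNA2, and at chr20:59958173-59958472 for CDH26. Capitals mark AGAACA on either strand (TGTTCT on the other), the half-site bound by the androgen receptor and related steroid receptors.
CTNNA2 first start: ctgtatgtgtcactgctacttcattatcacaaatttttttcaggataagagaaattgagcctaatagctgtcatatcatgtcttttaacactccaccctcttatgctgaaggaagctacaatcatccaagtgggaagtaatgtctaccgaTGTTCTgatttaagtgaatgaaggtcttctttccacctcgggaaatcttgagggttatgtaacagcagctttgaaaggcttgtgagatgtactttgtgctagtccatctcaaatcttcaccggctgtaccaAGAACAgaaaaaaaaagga
CTNNA2 second start: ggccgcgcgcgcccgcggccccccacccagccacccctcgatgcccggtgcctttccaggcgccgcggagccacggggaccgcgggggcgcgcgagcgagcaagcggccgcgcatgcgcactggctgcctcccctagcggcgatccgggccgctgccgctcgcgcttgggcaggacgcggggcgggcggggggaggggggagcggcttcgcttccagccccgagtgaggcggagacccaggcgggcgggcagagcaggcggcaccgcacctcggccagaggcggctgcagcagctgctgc
CDH26: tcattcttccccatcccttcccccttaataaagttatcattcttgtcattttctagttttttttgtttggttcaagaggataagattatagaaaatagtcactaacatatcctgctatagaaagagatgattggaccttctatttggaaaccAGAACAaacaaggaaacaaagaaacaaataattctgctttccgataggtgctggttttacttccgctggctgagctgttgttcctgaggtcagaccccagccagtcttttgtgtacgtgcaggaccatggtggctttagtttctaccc
The first CTNNA2 window held 2 half-sites, at -100 and 32 relative to the start, with 3 CpG and 39.3% G+C. The second held none, with 43 CpG and 80.0% G+C, and the CDH26 window held 1 at -98. The half-site occurred in 16 of the 77 windows found for 54 of the 72 members and in 14.8% of all 35116 windows. The full palindrome, AGAACA and TGTTCT with 3 bases between them, occurred in none of the 77 and in 1 window of all 35116. A match of letters is a description of these windows, and the counts do not show which start was used.

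Across the R1881 comparisons, 4 other members were called in at least 3 lines, namely CDH7, CDH26, PCDH1 and CDH1. In 42D sgT33-5, 3 of 22 members tested rose and 5 fell, where 27.3% of all genes tested were called. In 42D NT3, 4 of 22 rose and 5 fell, with 25.3% of all genes called. In LNCaP sgT33-5, 2 of 18 rose and 4 fell (12.5% of all genes), in C2 1 rose and 1 fell (5.66%), in F2 1 rose and 1 fell (10.4%), and in NT3 2 rose and 2 fell (13.2%). The members' share was near the background in F2 and above it in the other lines, a description that was not tested. Their median log2 fold change was 0.04 in 42D NT3 and -0.04 in LNCaP NT3, against -0.003 and -0.01 over all genes tested.

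CDH26, a cadherin described in inflamed epithelia, fell in 4 lines. It stood at 5.36, 4.34 and 5.21 CPM in 42D sgT33-5 with R1881, against 13.0, 12.9 and 12.6 CPM with DMSO. In 42D NT3 it stood at 6.73, 6.01 and 6.73 CPM with R1881, against 13.0, 13.1 and 14.8 CPM with DMSO. Every R1881 library of 42D lay well below every DMSO library, with log2 fold changes of -1.36 (SE 0.111, adjusted p = 2.14e-09) in 42D sgT33-5 and -1.05 (SE 0.105, adjusted p = 6.24e-08) in 42D NT3 in edgeR's test. In LNCaP sgT33-5 it stood at 10.2, 13.4 and 11.6 CPM with R1881, against 16.4, 16.9 and 14.1 CPM with DMSO. In LNCaP NT3 it stood at 7.46, 7.31 and 7.14 CPM with R1881, against 10.1, 8.75 and 10.9 CPM with DMSO. The groups did not overlap in either, and the changes were smaller, at -0.44 (SE 0.125, adjusted p = 0.0199) in LNCaP sgT33-5 and -0.45 (SE 0.14, adjusted p = 0.0305) in LNCaP NT3. Both LNCaP calls were easily lost. The one in LNCaP sgT33-5 ended without DMSO replicate 1 or 2 or R1881 replicate 1 or 3 (adjusted p 0.0645 to 0.114) and without both libraries of low mitochondrial share (0.0745), and the one in NT3 ended without any one library other than DMSO replicate 2 (0.0658 to 0.132). The log2 fold change of CDH26 in 42D NT3 minus that in LNCaP NT3 was -0.63 (SE 0.18, adjusted p = 0.0361), a larger fall in 42D. Without a replicate block it was the only one of 25 members called for a difference in response between the cell lines, with 3.85% of all genes called. That call ended without any one of the 12 libraries other than LNCaP NT3 DMSO replicate 3 (adjusted p 0.0533 to 0.145).

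CDH7, a type II cadherin of the neural crest and brain, fell in 5 lines. It stood at 7.25, 7.98 and 9.56 CPM in 42D sgT33-5 with R1881, against 9.36, 11.7 and 14.6 CPM with DMSO, and these groups overlapped. In 42D NT3 it stood at 6.66, 7.68 and 7.10 CPM with R1881, against 9.55, 10.7 and 13.6 CPM with DMSO, without overlap. The log2 fold change was -0.52 (SE 0.158, adjusted p = 0.0184) in 42D sgT33-5 and -0.64 (SE 0.163, adjusted p = 0.00707) in 42D NT3 in edgeR's test. The call in 42D sgT33-5 ended without 42D sgT33-5 DMSO replicate 3, R1881 replicate 1 or R1881 replicate 2 (adjusted p 0.0678 to 0.107). In LNCaP sgT33-5 it stood at 1.53, 1.38 and 1.46 CPM with R1881, against 3.48, 2.55 and 2.31 CPM with DMSO. In C2 it stood at 0.696, 0.737 and 1.06 CPM with R1881, against 1.78, 1.62 and 1.98 CPM with DMSO. In LNCaP NT3 it stood at 1.15, 0.797 and 1.001 CPM with R1881, against 1.87, 1.65 and 2.20 CPM with DMSO. None of these groups overlapped, and the log2 fold change was -0.93 (SE 0.215, adjusted p = 0.00364) in LNCaP sgT33-5, -1.10 (SE 0.245, adjusted p = 0.00476) in C2 and -0.96 (SE 0.25, adjusted p = 0.00816) in LNCaP NT3. The LNCaP NT3 call ended without R1881 replicate 2 (adjusted p = 0.0576). In F2 the change of -0.95 missed the threshold (adjusted p = 0.0534) and passed it with the replicate number as a block (adjusted p = 0.0408).

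PCDH1, a protocadherin of epithelia best known from the airway, rose in 4 lines. It stood at 116, 107 and 113 CPM in 42D sgT33-5 with R1881, against 72.9, 65.1 and 66.1 CPM with DMSO. In 42D NT3 it stood at 93.4, 86.8 and 93.9 CPM with R1881, against 67.9, 63.0 and 68.4 CPM with DMSO. The R1881 libraries were all higher, and the log2 fold change was 0.72 (SE 0.0541, adjusted p = 5.64e-10) in 42D sgT33-5 and 0.48 (SE 0.0549, adjusted p = 5.3e-07) in 42D NT3 in edgeR's test. In LNCaP sgT33-5 it stood at 26.2, 27.3 and 31.3 CPM with R1881, against 17.5, 17.1 and 21.8 CPM with DMSO. In LNCaP NT3 it stood at 29.7, 33.7 and 30.8 CPM with R1881, against 16.6, 18.2 and 22.6 CPM with DMSO. The log2 fold changes were 0.58 (SE 0.181, adjusted p = 0.0407) in LNCaP sgT33-5 and 0.71 (SE 0.181, adjusted p = 0.0097) in LNCaP NT3, without overlap. The LNCaP sgT33-5 call ended without any one library other than DMSO replicate 3 (adjusted p 0.0575 to 0.166) and with no filter on low counts (0.131), and the NT3 call without DMSO replicate 1 (adjusted p = 0.0615). In F2, PCDH1 passed only with the replicate block (0.36, adjusted p = 0.00423, against 0.228 without it). The same held in C2 (0.43, adjusted p = 0.00724, against 0.261 without it).

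CDH1 fell slightly in 3 lines. It stood at 381, 363 and 378 CPM in 42D sgT33-5 with R1881, against 462, 499 and 488 CPM with DMSO. In 42D NT3 it stood at 415, 358 and 398 CPM with R1881, against 498, 462 and 529 CPM with DMSO. The R1881 libraries were all lower, with log2 fold changes of -0.36 (SE 0.0528, adjusted p = 1.3e-05) in 42D sgT33-5 and -0.33 (SE 0.0528, adjusted p = 5.27e-05) in 42D NT3 in edgeR's test. In LNCaP sgT33-5 it stood at 466, 473 and 531 CPM with R1881, against 554, 558 and 581 CPM with DMSO, a log2 fold change of -0.21 (SE 0.0527, adjusted p = 0.00668) without overlap. That call ended without both libraries of low mitochondrial share (adjusted p = 0.140) and when the libraries compared were fitted alone (0.0525). In LNCaP NT3 the log2 fold change of -0.11 was not called (adjusted p = 0.214), but it was with the replicate block (adjusted p = 0.0293). The 42D response minus the LNCaP response in NT3 was -0.25 (SE 0.0784, adjusted p = 0.0741), and it was called with the replicate block (adjusted p = 0.00641).

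Further changes were seen in 42D. PCDH19, a protocadherin whose loss causes an X-linked epilepsy, stood at 3.05, 2.83 and 2.64 CPM in sgT33-5 with R1881, against 6.06, 6.75 and 6.70 CPM with DMSO. In NT3 it stood at 2.73, 2.86 and 3.31 CPM with R1881, against 6.09, 5.83 and 7.92 CPM with DMSO. The groups did not overlap, and the log2 fold change was -1.19 (SE 0.154, adjusted p = 2.66e-06) in 42D sgT33-5 and -1.14 (SE 0.152, adjusted p = 5e-06) in 42D NT3 in edgeR's test. PCDH7, a protocadherin of brain and heart, also fell in both 42D lines, by 0.74 (SE 0.119, adjusted p = 0.000772) in sgT33-5 and by 0.84 (SE 0.138, adjusted p = 0.00103) in NT3 on the log2 scale. CDH12, a type II cadherin of the brain, rose from a low level. It stood at 0.853, 1.32 and 1.12 CPM in sgT33-5 with R1881, against 0.122, 0.0597 and 0.121 CPM with DMSO. In NT3 it stood at 0.666, 0.714 and 0.857 CPM with R1881, against 0.119, 0.417 and 0.0623 CPM with DMSO. Its R1881 libraries were all higher. It passed the filter on low counts in 42D only through them, so its calls and p-values are a description. The log2 fold change was 3.35 (SE 0.504, adjusted p = 2.04e-05) in sgT33-5 and 1.95 (SE 0.484, adjusted p = 0.00425) in NT3, and 2.95 in NT3 without DMSO replicate 2. PCDHB5 stood at 3.33, 2.38 and 3.00 CPM in 42D NT3 with R1881, against 1.97, 2.01 and 1.75 CPM with DMSO, a rise of 0.62 (SE 0.207, adjusted p = 0.0318). The PCDHB5 call ended without any one library other than R1881 replicate 2 (adjusted p 0.0534 to 0.119) and with DESeq2 (0.0829). CTNND2 in 42D NT3 changed by -0.22 (adjusted p = 0.0532), and it passed with the replicate block (adjusted p = 0.0141).

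PCDH11Y, on the Y chromosome and near-identical over much of its length to PCDH11X, was lower with R1881 in both LNCaP sgT33-5 and F2. It stood at 2.81, 3.14 and 3.11 CPM in LNCaP sgT33-5 with R1881, against 5.02, 4.75 and 3.25 CPM with DMSO, and at 4.11, 4.04 and 3.95 CPM in F2 with R1881, against 5.37, 7.37 and 4.95 CPM with DMSO. The groups did not overlap, at log2 fold changes of -0.53 (SE 0.177, adjusted p = 0.0492) in LNCaP sgT33-5 and -0.56 (SE 0.158, adjusted p = 0.0194) in F2. The call in LNCaP sgT33-5 ended without any one library other than DMSO replicate 3 (adjusted p 0.0882 to 0.207), with DESeq2 (0.0616) and when the libraries compared were fitted alone (0.107). The F2 call ended without DMSO replicate 2, R1881 replicate 2 or R1881 replicate 3 (0.0570 to 0.217) and when fitted alone (0.0831). In LNCaP the number of members called depended on single libraries. It was 3 in place of 6 in LNCaP sgT33-5 without DMSO replicate 1, DMSO replicate 2, R1881 replicate 1 or R1881 replicate 3, and 4 without both libraries of low mitochondrial share. It was 1 in place of 2 in F2 without the libraries just named, and 2 in place of 4 in LNCaP NT3 without DMSO replicate 1 or R1881 replicate 2. With the replicate block F2 had 4.

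**Figure D2:**
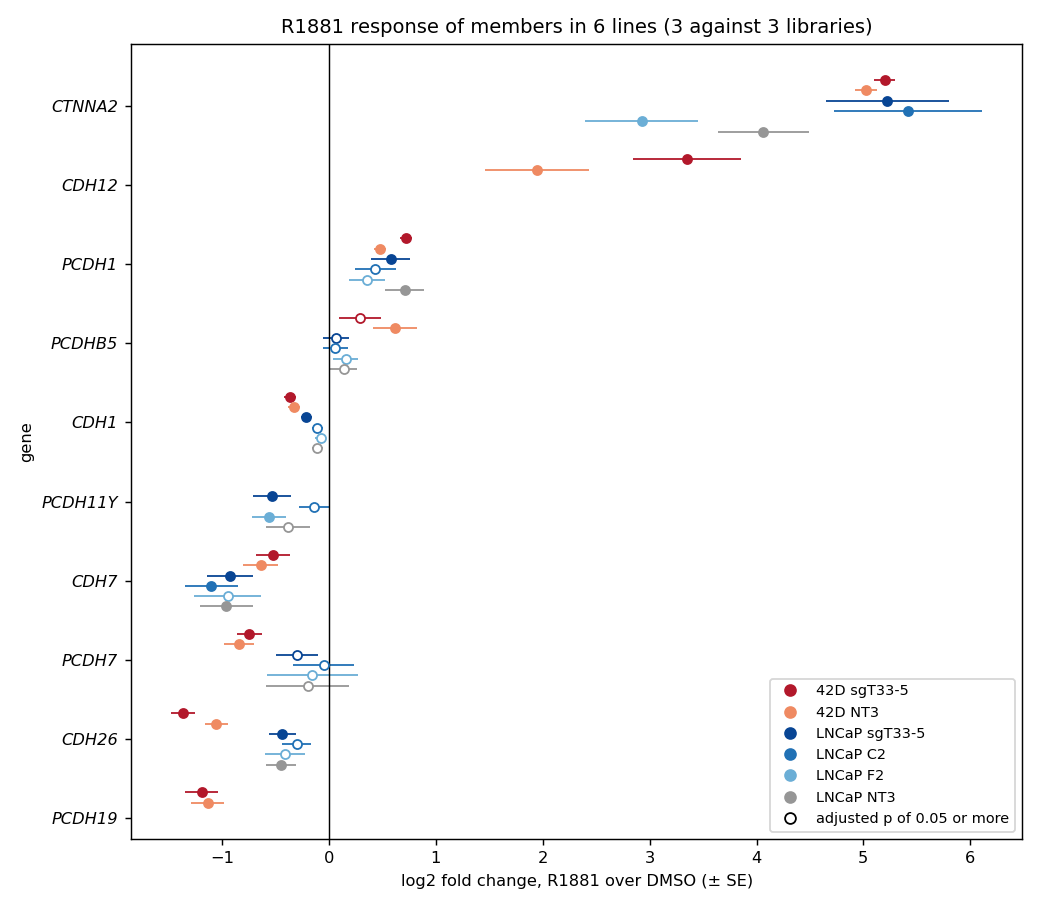
Log2 fold change of R1881 against DMSO for each member called in at least 1 line, one point per line with its SE as a bar and filled points for calls at an adjusted p under 0.05. CTNNA2 stood furthest right in all 6 lines, from 2.92 in F2 to 5.42 in C2, and CDH26 and CDH7 lay left of 0.

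The R1881 response of guide lines was compared with that of NT3 by an interaction term. Without a replicate block no member was called in any of the 4 guide lines, where 0% of all genes were called in LNCaP sgT33-5, 0.689% in C2, 0% in F2 and 0.123% in 42D sgT33-5. At an unadjusted p under 0.05 edgeR gave 0 members in each LNCaP guide line and 1 in 42D sgT33-5, and DESeq2 called 0 in each. The 1 member was PCDH1, whose response was larger by 0.24 in log2 in 42D sgT33-5 than in 42D NT3 (SE 0.0771, adjusted p = 0.31), and it was called with the replicate block (adjusted p = 0.0293). For CTNNA2 the response in the guide line minus that in NT3 was 1.16 (SE 1.02) in LNCaP sgT33-5, 1.35 (SE 1.11) in C2, -1.14 (SE 0.93) in F2 and 0.18 (SE 0.203) in 42D sgT33-5. The errors of the LNCaP values were nearly as large as the values, and a p above the threshold does not show equal responses.

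Each guide line was also set against NT3 at the same treatment. The 3 LNCaP guide lines share the NT3 libraries, so their values are given side by side. The largest change was in PCDH7 (ENSG00000169851, chromosome 4, 30720369 to 31146805). In 42D sgT33-5 with DMSO it stood at 138, 138 and 179 CPM, against 52.2, 56.4 and 64.6 CPM in 42D NT3. With R1881 it stood at 82.2, 86.9 and 102 CPM in 42D sgT33-5, against 31.0, 30.2 and 34.2 CPM in 42D NT3. The guide libraries lay above all NT3 libraries at both treatments, 2.64-fold higher with DMSO (log2 fold change 1.40, SE 0.123, adjusted p = 0.000327) and 2.82-fold higher with R1881 (1.49, SE 0.134, adjusted p = 0.000559) in edgeR's test. Of 22 members tested in 42D, PCDH7 was the only one called with DMSO, where 1.13% of all genes were. With R1881, 2 members rose and none fell, where 0.513% of all genes were called. The second was PCDH1, with a change of 0.29 (SE 0.0531, adjusted p = 0.00937) that ended without NT3 R1881 replicate 2 or sgT33-5 R1881 replicate 1 (0.0603 to 0.0824). With the replicate block CTNNA2 was called as well, at 0.26 (adjusted p = 0.0012, against 0.0611 without it).

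In LNCaP sgT33-5, PCDH7 was higher than in NT3 as well, at a far lower level than in 42D. With DMSO it stood at 5.96, 8.32 and 6.62 CPM, against 0.818, 1.15 and 0.841 CPM in LNCaP NT3. With R1881 it stood at 5.87, 6.22 and 5.08 CPM, against 0.637, 0.864 and 0.935 CPM in NT3. The groups were far apart, 7.52-fold with DMSO (log2 fold change 2.91, SE 0.264, adjusted p = 6.42e-08) and 7.03-fold with R1881 (2.81, SE 0.279, adjusted p = 3.42e-07) in edgeR's test. CDH26 also rose there, as the levels given above show, by 0.67 (SE 0.128, adjusted p = 0.00378) with DMSO and 0.69 (SE 0.137, adjusted p = 0.00421) with R1881. Without a replicate block these were the only members of 18 called at either treatment, where 1.4% of all genes were called with DMSO and 3.04% with R1881. With the block and DMSO, PCDH11Y was called as well, at 0.665 (adjusted p = 0.0183, against 0.0642 without it). So was PCDHB2, at 0.415 (adjusted p = 0.0234, against 0.128 without it).

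The rise of PCDH7 was smaller in C2 and was not seen in F2, and CDH26 was not called higher in either line. PCDH7 stood at 0.918, 2.45 and 1.44 CPM in C2 with DMSO, which overlapped NT3, a log2 fold change of 0.80 (SE 0.327, adjusted p = 0.0914). It stood at 1.02, 1.87 and 1.81 CPM in C2 with R1881, a rise of 0.95 (SE 0.336, adjusted p = 0.0409). With the replicate block PCDH7 was also called in C2 with DMSO, at 0.777 (adjusted p = 0.0343). In F2 it stood at 0.362, 0.758 and 0.753 CPM with DMSO and 0.675, 0.546 and 0.494 CPM with R1881, with log2 fold changes against NT3 of -0.54 (SE 0.391, adjusted p = 0.387) and -0.50 (SE 0.418, adjusted p = 0.494). CDH26 stood at 9.36, 9.31 and 10.7 CPM in C2 with DMSO, a change of -0.02 against NT3. In F2 it stood at 2.90, 4.23 and 2.58 CPM with DMSO and 2.70, 2.73 and 1.92 CPM with R1881, below every NT3 library. With DMSO it fell by 1.61 in log2 (SE 0.155, adjusted p = 3.28e-08), 3.05-fold, and with R1881 it fell by 1.57 (SE 0.171, adjusted p = 3.11e-07).

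In C2 with DMSO and no replicate block, 3 of 18 members rose and none fell, near the 18.2% of all genes called. With R1881 3 rose and 2 fell, where 23% of all genes were called. PCDH11Y (ENSG00000099715) rose most. It stood at 8.49, 8.64 and 8.78 CPM in C2 with DMSO, against 2.75, 2.44 and 2.98 CPM in NT3, and at 8.67, 7.71 and 7.26 CPM with R1881, against 1.98, 2.59 and 1.74 CPM in NT3. The C2 libraries were all higher, with log2 fold changes of 1.67 (SE 0.164, adjusted p = 2.87e-08) with DMSO and 1.91 (SE 0.173, adjusted p = 4.36e-09) with R1881. PCDHB2 rose by 0.80 (SE 0.128, adjusted p = 6.26e-05) with DMSO, at 10.8, 12.04 and 12.7 CPM in C2 against 6.60, 7.39 and 6.60 CPM in NT3, and by 0.52 (SE 0.125, adjusted p = 0.00314) with R1881. PCDHB5 rose by 0.35 with DMSO (SE 0.122, adjusted p = 0.0469), at 14.3, 14.999 and 15.9 CPM in C2 against 13.0, 13.7 and 8.99 CPM in NT3. The replicate block added 2 calls with DMSO besides PCDH7. PCDH1 fell by 0.392 (adjusted p = 0.00831, against 0.180 without the block in edgeR's test), and CDH24 rose by 0.411 (0.00654, against 0.112). With R1881, CTNNA2 fell by 1.21 in log2 (SE 0.273, adjusted p = 0.00186) and PCDH1 fell by 0.66 (SE 0.177, adjusted p = 0.00967). The PCDHB5 call ended without any one library other than NT3 DMSO replicate 2 (adjusted p 0.0511 to 0.336) and with RLE scaling, DESeq2 or the libraries compared alone (0.0503 to 0.0740), the PCDH7 call without any one other than C2 R1881 replicate 1 (0.0552 to 0.148), and the PCDH1 call without C2 R1881 replicate 1 (0.0613).

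In F2, 3 members rose and 2 fell with DMSO, where 16.7% of all genes were called, and 3 rose and 3 fell with R1881, where 13.4% were. PCDH11Y rose by 1.12 (SE 0.171, adjusted p = 4.6e-05) with DMSO and by 0.94 (SE 0.191, adjusted p = 0.00125) with R1881. PCDH11X stood at 3.14, 2.06 and 2.26 CPM in F2 with DMSO, against 1.40, 1.08 and 1.42 CPM in NT3, and at 3.25, 2.84 and 2.41 CPM with R1881, against 1.27, 1.33 and 1.20 CPM in NT3. All F2 libraries were higher, by 0.92 (SE 0.249, adjusted p = 0.012) and 1.15 (SE 0.248, adjusted p = 0.00206) in log2. CDH7 stood at 0.906, 1.14 and 0.807 CPM in F2 with DMSO, below all NT3 libraries. It fell by 0.999 in log2 (SE 0.243, adjusted p = 0.00539) with DMSO and fell by 0.99 with R1881 (SE 0.321, adjusted p = 0.0406). PCDH1 rose by 0.73 (SE 0.179, adjusted p = 0.00753) with DMSO, at 27.6, 29.3 and 38.2 CPM in F2 against 16.6, 18.2 and 22.6 CPM in NT3. With R1881, CTNNA2 fell by 1.54 (SE 0.291, adjusted p = 0.000543) and CDH1 rose by 0.16 (SE 0.0526, adjusted p = 0.0367). Calls that ended without single libraries were PCDH1 with DMSO (without NT3 replicate 1 or F2 replicate 3, adjusted p 0.0514 to 0.0558), PCDH11X with DMSO (NT3 replicate 2 or F2 replicate 1, 0.0597 to 0.0792), CDH7 with R1881 (NT3 replicate 1 or 3, F2 replicate 2 or 3, 0.0956 to 0.214) and CDH1 with R1881 (NT3 replicate 1 or 2, F2 replicate 2 or 3, 0.0627 to 0.129). With R1881, the CDH7 call also ended with no filter, with DESeq2 and with the libraries compared alone (0.0896 to 0.132), and the CDH1 call with the libraries compared alone (0.0880). With the replicate block 9 members were called with DMSO, adding PCDHB2 at 0.36 (adjusted p = 0.0148), PCDHB5 at 0.32 (0.0371), PCDHB14 at 0.78 (0.0407) and CDH1 at 0.13 (0.00591). Reads of PCDH11X and PCDH11Y, and of the PCDHB genes among themselves, could be misassigned between near-identical copies, and the counting rule is not given in the sources used here.

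**Figure D3:**
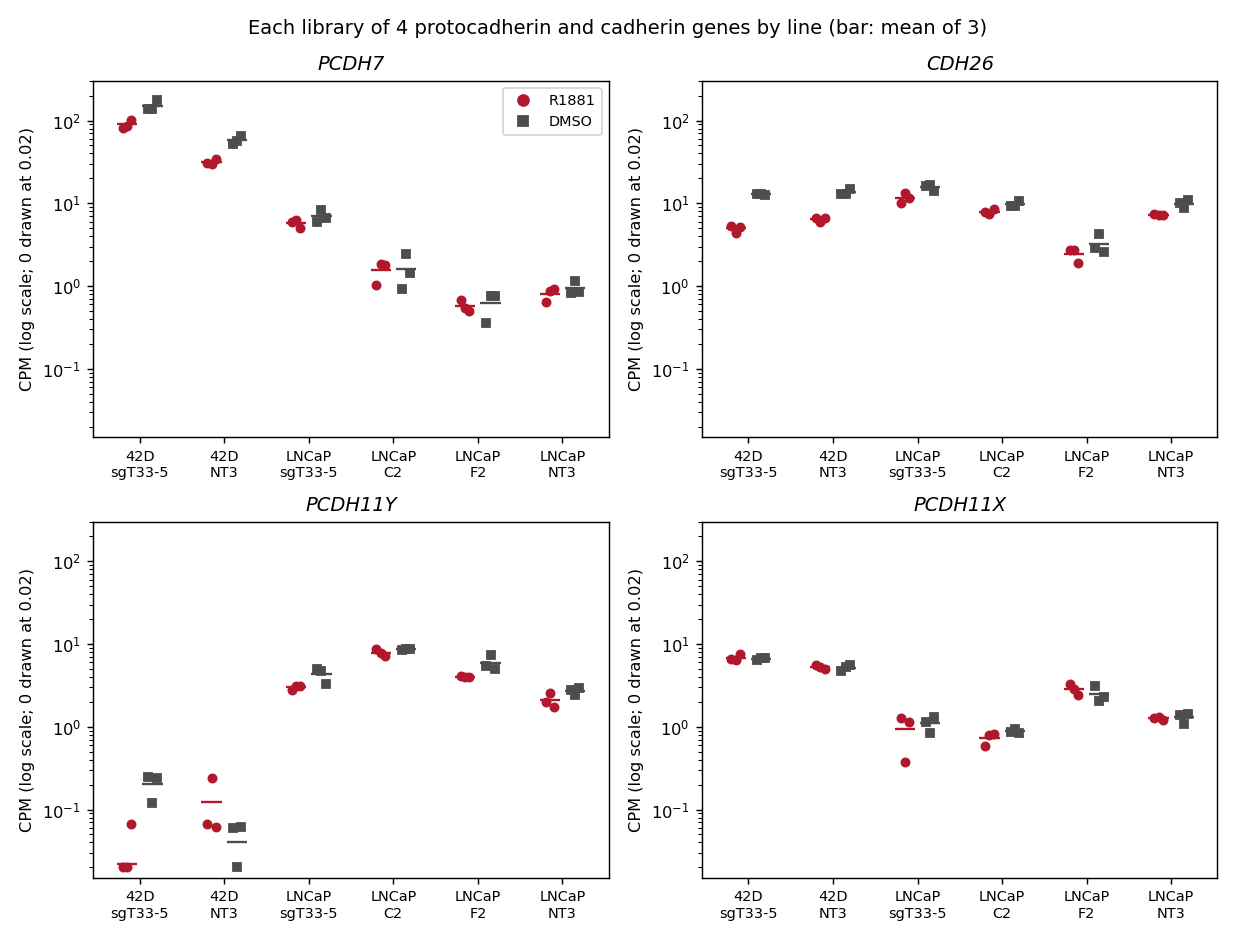
CPM on a log axis (0 drawn at 0.02) of PCDH7, CDH26, PCDH11Y and PCDH11X in each library, by line, with circles for R1881, squares for DMSO and bars for the mean of 3 libraries. PCDH7 was higher in sgT33-5 than in NT3 in 42D and in LNCaP, F2 lay close to LNCaP NT3, and CDH26 was lower in F2 than in the other LNCaP lines.

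LNCaP sgT33-5 and F2, which carry the same guide name, were set against each other directly, a comparison added after the values were seen. With DMSO, 3 of 18 members were higher in sgT33-5 and 3 lower, where 22.3% of all genes were called, and with R1881 4 were higher and 2 lower, where 8.74% were. PCDH7 was 10.9-fold higher in sgT33-5 than in F2 with DMSO (log2 fold change 3.45, SE 0.274, adjusted p = 1.11e-09), and CDH26 was higher by 2.28 in log2 (SE 0.147, adjusted p = 2.3e-11). With R1881 the differences were 3.31 (SE 0.291, adjusted p = 9.58e-09) for PCDH7 and 2.26 (SE 0.161, adjusted p = 2.1e-10) for CDH26. CDH7 was higher by 1.53 with DMSO and 1.55 with R1881, and PCDH11X stood at -1.17 with DMSO and -1.60 with R1881. With the replicate block CDH1 was called as well with DMSO, at -0.12 (adjusted p = 0.00788). The effect of the guide in 42D minus that in LNCaP, added at the same stage, was -1.52 for PCDH7 with DMSO (SE 0.319, adjusted p = 0.0117) and -0.76 for CDH26 (SE 0.162, adjusted p = 0.0111), the 2 of 25 members called, where 0.797% of all genes were. With R1881 CDH26 was called at -1.07 (SE 0.19, adjusted p = 0.000773), where 1.32% were, and PCDH7 stood at -1.31 (SE 0.346, adjusted p = 0.0516). The PCDH7 call with DMSO ended without LNCaP NT3 DMSO replicate 1 or 3 (adjusted p 0.0606 to 0.0982) and with the libraries compared alone (0.0551), and the CDH26 call without 42D NT3 DMSO replicate 3 (0.0541). With R1881, 3 members were called without LNCaP sgT33-5 R1881 replicate 3 and 2 without 42D sgT33-5 R1881 replicate 3.

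The largest differences lay between the cell lines. In NT3 with DMSO, 13 of 25 members tested were higher in 42D and 8 were lower, where 34.8% of all genes tested were higher and 33.3% lower, 68.1% in all. Of the 25, 7 passed the filter on low counts in 42D alone, namely CTNND2, CDH19, PCDH19, PCDHAC2, CDH23, CDH12 and CDH2. The 3 that passed it in LNCaP alone were PCDH11Y, PCDHB3 and PCDHB13. These counts, and the p-values of the members just named, depend in part on where a member is expressed and are a description. Neuroendocrine markers summed to 5.00 to 8.61 CPM in the 42D libraries and 1.26 to 2.54 CPM in LNCaP, with 1 of the 5 at 0 throughout. Endothelial markers summed to 1.45 to 3.39 CPM in 42D and 7.92 to 22.9 CPM in LNCaP, and they did not move together. In NT3 with DMSO, VWF averaged 1.26 CPM in 42D and 20.7 CPM in LNCaP, KDR averaged 1.08 CPM in 42D and 0.0673 CPM in LNCaP, and PECAM1 had no count in either. Their part in these differences was not tested, and in bulk samples fewer cells of a type and less RNA per cell cannot be told apart.

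The catenins split by type. CTNND2, the delta-catenin of neurons (ENSG00000169862, chromosome 5, 10971836 to 11904446), stood at 25.3, 22.2 and 24.9 CPM in 42D NT3, against 0.0584, 0.0718 and 0.129 CPM in LNCaP NT3. Every 42D library lay far above every LNCaP library, 258-fold on the fitted scale (log2 fold change 8.01, SE 0.279, adjusted p = 2.55e-24). CTNND2 passed the filter on low counts in 42D alone, so these values are a description. CTNNA2 was 11.2-fold higher in 42D (3.48, SE 0.404, adjusted p = 1.51e-09). The epithelial catenins were lower in 42D. CTNND1, which encodes p120-catenin, stood at 8.06, 6.67 and 8.23 CPM in 42D NT3, against 14.9, 16.1 and 15.2 CPM in LNCaP NT3, without overlap (-1.003, SE 0.103, adjusted p = 7.92e-11). CTNNA1 stood at 368, 367 and 377 CPM in 42D NT3, against 437, 473 and 426 CPM in LNCaP NT3 (-0.27, SE 0.0407, adjusted p = 4.97e-07). The table also lists a TMX2-CTNND1 readthrough gene that spans CTNND1 on chromosome 11 and has 0 counts in all 36 libraries, and how reads shared between them were treated is not given in the sources used here. CTNNA3, the remaining alpha-catenin, stood at 0 to 0.200 CPM in 42D and 0 to 0.0670 CPM in LNCaP.

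Among cadherins, CDH1 was slightly lower in 42D NT3, at 498, 462 and 529 CPM, against 537, 556 and 596 CPM in LNCaP NT3 (-0.18, SE 0.0554, adjusted p = 0.00425). CDH19, CDH2, CDH23 and CDH15 were higher there. CDH12 was not called (0.79, SE 0.763, adjusted p = 0.364), and CDH18, too low to be tested, stood at 0.00820 CPM per kb in 42D NT3 and 0.0219 CPM per kb in LNCaP NT3. CDH19, a cadherin of the neural crest and Schwann cells, stood at 5.37, 5.00 and 4.86 CPM in 42D NT3 and had no count in LNCaP NT3, which makes it at least 78.9-fold higher when LNCaP is set at 3 counts over the group. CDH2 had 12 counts in 42D NT3 and none in LNCaP NT3, at least 3.94-fold higher on the same floor. CDH23, a cadherin of inner ear hair bundles, stood at 1.79, 2.01 and 2.37 CPM in 42D NT3, against 0.175, 0.144 and 0 CPM in LNCaP NT3 (4.17, SE 0.427, and 4.77 without LNCaP NT3 DMSO replicate 1). CDH15, the M-cadherin of muscle, stood at 4.36, 4.79 and 4.80 CPM in 42D NT3, against 0.584, 0.359 and 0.388 CPM in LNCaP NT3 (3.34, SE 0.256). In all of these the groups were apart. CDH7 was 5.89-fold higher in 42D.

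Of the 13 protocadherins outside the clusters, 5 were tested, of which 4 were higher in 42D and PCDH11Y was lower. PCDH19 passed the filter on low counts in 42D alone and PCDH11Y in LNCaP alone. The other 8 were too low to be tested, and in NT3 with DMSO the mean was lower in 42D for PCDH8, PCDH9 and PCDH15, higher for PCDH18 and 0 in both cell lines for 4. PCDH7 was 61.9-fold higher (5.95, SE 0.204, adjusted p = 4.92e-22). PCDH19 stood at 6.09, 5.83 and 7.92 CPM in 42D NT3, against 0.175, 0.144 and 0.194 CPM in LNCaP NT3, 36.9-fold higher (5.21, SE 0.304). PCDH1 was 3.48-fold higher (1.80, SE 0.15). PCDH11X stood at 4.66, 5.28 and 5.55 CPM in 42D NT3, against 1.40, 1.08 and 1.42 CPM in LNCaP NT3 (1.97, SE 0.201). PCDH11Y went the other way, at 0.0597, 0 and 0.0623 CPM in 42D NT3, against 2.75, 2.44 and 2.98 CPM in LNCaP NT3. It had 2 counts in 42D NT3 and 127 in LNCaP NT3, so that the LNCaP level was 64.4 times the 42D level with a 95% counting interval of 17.5 to 538. No group overlapped its partner in these genes.

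**Figure D4:**
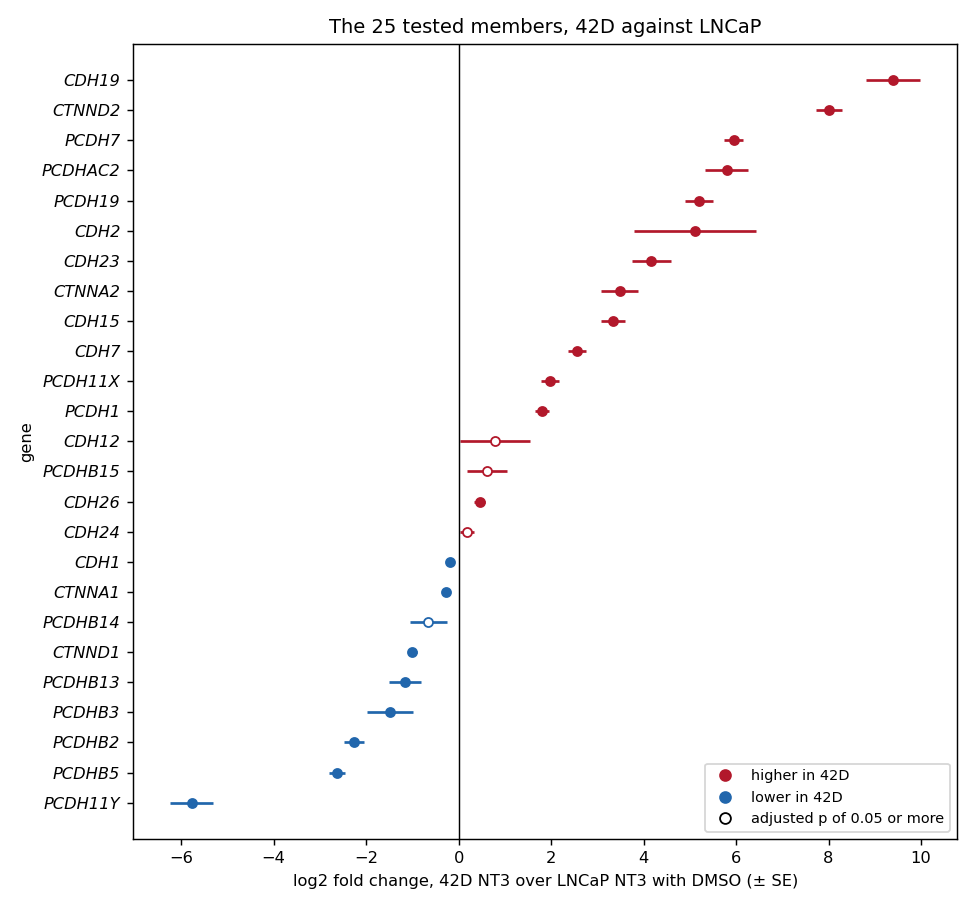
Log2 fold change of 42D NT3 over LNCaP NT3 with DMSO for the 25 members tested, one row per gene in order of the change, with bars for the SE, filled points for calls and open points for an adjusted p of 0.05 or more. CTNND2 and PCDH7 head the genes higher in 42D that had counts in both cell lines, the fitted values of CDH19 and CDH2 depend on the prior count since LNCaP NT3 had none, PCDH11Y and PCDHB5 were lowest, and CDH1 and CTNNA1 lay near 0.

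The clustered protocadherins, which lie side by side on chromosome 5, differed in opposite ways. Summed over the 16 beta genes, 42D NT3 with DMSO had 5.37, 5.49 and 6.61 CPM (mean 5.82 ± 0.682, SD, n = 3) and LNCaP NT3 had 24.2, 27.6 and 20.6 CPM (24.1 ± 3.53). All 12 libraries of 42D lay at 5.01 to 8.13 CPM and all 24 of LNCaP at 20.6 to 37.3 CPM. Of the 6 beta genes tested, 4 were lower in 42D and none higher. Among these 4, PCDHB3 and PCDHB13 passed the filter on low counts in LNCaP alone, where they were higher, so this count is a description. Over all 16 the mean was lower in 42D for 13 and higher for PCDHB1, PCDHB9 and PCDHB15. PCDHB5 (ENSG00000113209, chromosome 5, 141135206 to 141138615) stood at 1.97, 2.01 and 1.75 CPM in 42D NT3, against 13.0, 13.7 and 8.99 CPM in LNCaP NT3, so that it was 6.21-fold lower in 42D (-2.64, SE 0.168, adjusted p = 2.08e-16). PCDHB2, PCDHB3 and PCDHB13 are named for being the other beta genes called, after their values were seen. PCDHB2 stood at 1.25, 1.04 and 1.93 CPM in 42D NT3, against 6.60, 7.39 and 6.60 CPM in LNCaP NT3 (-2.26, SE 0.213, adjusted p = 8.76e-12). PCDHB13 changed by -1.16 (SE 0.349, adjusted p = 0.00374) and PCDHB3 by -1.49 (SE 0.501, adjusted p = 0.00914). PCDHB3 rested on few counts, and its call ended without 42D NT3 DMSO replicate 1 (adjusted p = 0.0597) while its change was -2.30 without replicate 3.

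The alpha genes went the other way, at 3.58 ± 0.0556 CPM in sum in 42D NT3 and 0.238 ± 0.0466 CPM in LNCaP NT3 (SD, n = 3). Most of it was PCDHAC2, at the end of the alpha cluster, at 2.57, 2.64 and 3.18 CPM in 42D NT3, against 0.0584, 0 and 0.0647 CPM in LNCaP NT3. It had 132 counts in 42D NT3 and 2 in LNCaP NT3, a ratio of 65.1 with a 95% counting interval of 17.7 to 543. Alpha genes share their constant exons, and 54.6% of the PCDHAC2 exon length belongs to no other gene, so an alpha read may be left uncounted or assigned elsewhere. The 22 gamma genes, a list of relatives that are not members, summed to 33.3 ± 3.05 CPM in 42D NT3 and 58.2 ± 0.527 CPM in LNCaP NT3 (SD, n = 3).

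The 4 beta genes called are shown around the most frequent 10-base string of the 14 beta windows, GGTGGCGCTG, with 25 bases on either side. The string was chosen after the sequences were seen, and capitals mark it. The stretches are RefSeq sequence on GRCh38.p14, plus strand, at chr5:141094530-141094589 for PCDHB2, chr5:141100379-141100438 for PCDHB3, chr5:141135165-141135224 for PCDHB5 and chr5:141213851-141213910 for PCDHB13.
PCDHB2: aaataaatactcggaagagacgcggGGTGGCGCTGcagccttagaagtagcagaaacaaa
PCDHB3: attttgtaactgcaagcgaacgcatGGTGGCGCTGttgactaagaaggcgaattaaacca
PCDHB5: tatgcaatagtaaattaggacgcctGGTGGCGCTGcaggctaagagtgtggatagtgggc
PCDHB13: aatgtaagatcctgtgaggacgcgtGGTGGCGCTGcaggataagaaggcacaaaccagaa
On either strand, the string occurred in 12 of 14 beta windows, in none of 13 alpha windows and none of 25 gamma windows, and in 0.276% of all 35116 windows. It began at -60, -69, -16 and -43 relative to the annotated start in PCDHB2, PCDHB3, PCDHB5 and PCDHB13. PCDHB1 and PCDHB14 lacked it. CAGGTG on either strand, an E-box bound by SNAI and ZEB repressors, occurred in 5 of the 77 member windows and in 20.6% of all windows. Those 5 were windows of PCDHB1, PCDH1, PCDH15, CDH23 and CDH4. Windows were found for only 54 of the 72 members, so a member not named here, CDH1 included, is not shown to lack the E-box.

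**Figure D5:**
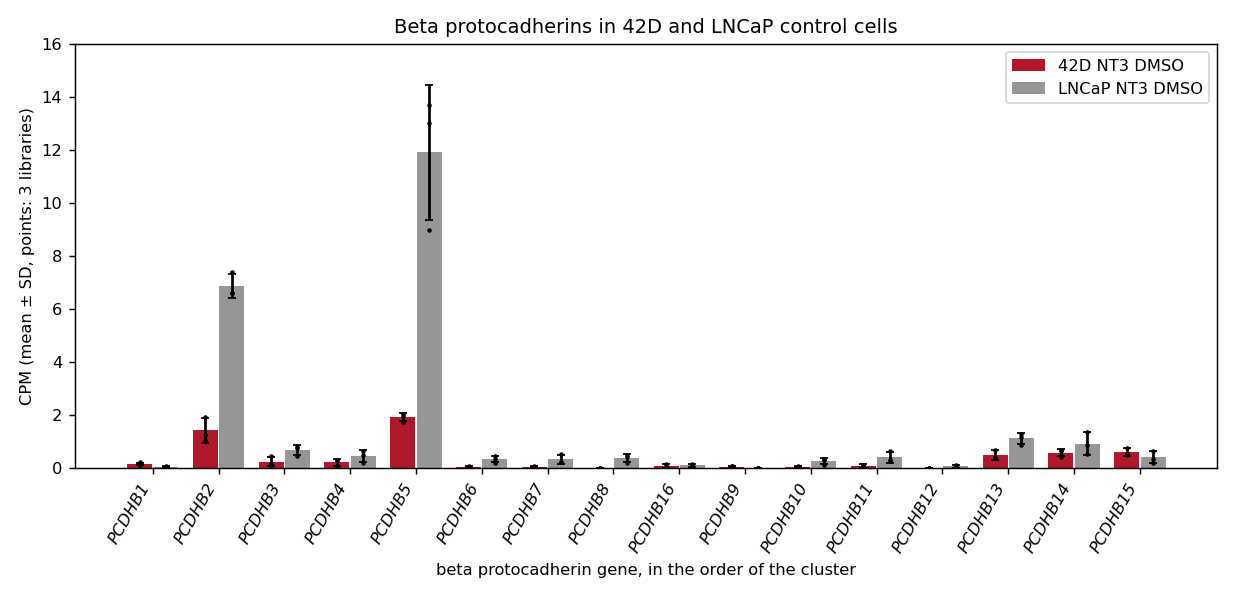
CPM of the 16 beta protocadherins in 42D NT3 and LNCaP NT3 with DMSO, in their order along the cluster, with bars for the mean, whiskers for the SD and points for the 3 libraries. PCDHB2 and PCDHB5 carried most of the LNCaP signal and were lower in 42D.

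Lists of related genes were counted beside the members. With R1881, CBLL1, which marks E-cadherin for turnover, rose in all 6 lines, by 1.97 in 42D sgT33-5 and 1.99 in 42D NT3 and by 0.51 to 0.91 in LNCaP. SNAI2, a repressor of CDH1, rose by 5.35 in 42D sgT33-5 and 4.32 in 42D NT3 and by 5.02 to 5.96 in LNCaP, and GRHL2, an activator of epithelial genes, rose by 2.30 and 2.27 in those 42D lines and by 1.06 to 1.75 in LNCaP. SNAI1, another repressor of CDH1, fell by 0.93 in 42D sgT33-5 and by 0.66 in 42D NT3, and OVOL1, an epithelial regulator, fell by 0.80 in 42D sgT33-5 and by 0.88 in 42D NT3. The desmosome genes PKP1 and DSC1 rose in all 6 lines as well. Other plaque genes fell, among them JUP by 0.25 in C2, by 0.34 in F2 and by 0.25 in LNCaP NT3, and PKP4 by 0.40 in 42D sgT33-5, 0.34 in 42D NT3, 0.33 in LNCaP sgT33-5 and 0.40 in LNCaP NT3. By list, in 42D NT3, where 25.3% of all genes were called, 4 of 16 genes of cadherin processing rose and none fell, 4 of 16 epithelial and mesenchymal regulators rose and 3 fell, 7 of 22 junction partners rose and 4 fell, 4 of 14 other cadherin superfamily genes rose and 2 fell, and 1 of 15 regulators of the protocadherin clusters rose and 2 fell. In LNCaP NT3, where 13.2% of all genes were called, the counts were 4 and 0 of 16, 3 and 0 of 15, 5 and 3 of 22, 3 and 1 of 13, and 2 and 0 of 15 for the same lists in that order. The share was near that of all genes for cadherin processing in 42D NT3 and for the cluster regulators in LNCaP NT3. Of the gamma genes, 0 of 14 tested were called in 42D NT3 and 0 of 20 in LNCaP NT3, with median log2 fold changes of 0.14 and 0.13.

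Against NT3, 7 of 20 gamma genes rose in C2 with DMSO, where 18.2% of all genes were called, and 8 of 20 with R1881, where 23% were. In F2, 4 of 20 rose with DMSO, near the 16.7% of all genes called, and 5 of 20 with R1881, where 13.4% were. None fell in either line. Their median log2 fold change with DMSO was 0.10 in LNCaP sgT33-5, 0.52 in C2 and 0.21 in F2. The other lists in C2 with R1881 held more falls than rises. There, 2 of 22 junction partners rose and 10 fell, and 1 of 13 other cadherin superfamily genes rose and 7 fell. In cadherin processing 1 of 16 rose and 6 fell, among epithelial and mesenchymal regulators 1 of 15 rose and 5 fell, and among cluster regulators 0 of 15 rose and 3 fell. The desmosomal cadherin DSC2 changed by -0.60 with DMSO and -0.58 with R1881 in LNCaP sgT33-5, and by -0.63 and -0.54 in F2, all of them calls. PTPRK, a phosphatase of cadherin junctions, fell by 3.00 in C2 at both treatments. Between the cell lines, where 34.8% of all genes were higher in 42D and 33.3% lower, 14 of 20 gamma genes were lower in 42D and none higher, with a median of -0.71, and 12 of 15 cluster regulators were higher and 3 lower. Gamma genes share exons, and 35.6% (PCDHGB4) to 72.4% (PCDHGA6) of their exon length belongs to no other gene. How shared reads were counted is not given, so the gamma calls may not be separate observations. Of 16 epithelial and mesenchymal regulators tested, 5 were higher in 42D and 6 lower. Of 15 other cadherin superfamily genes tested, 6 were higher and 5 lower. For both lists these shares were near those of all genes. By log2 fold change, DSC2 stood at -1.52 in 42D, the mesenchymal genes VIM and TWIST1 at -3.59 and -2.61, and SNAI2 at 2.33.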

How the data were processed

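Polyadenylated RNA of 36 libraries, 3 in each of 12 groups, was prepared with a stranded kit and sequenced with paired reads, per the labels' protocols. The deposited table holds raw read counts of 61805 genes. Reads were trimmed with cutadapt and aligned to GRCh38 (hg38) with HISAT2 2.1.0, per the submitters' processing notes. The counting tool and its rule for strand and shared reads are not given in the sources used here. A further entry of the table without a gene name held 0 counts. Library totals of 13900744 to 19793268 set the precision, and the chi-square of replicate pairs was 2.59 to 24.2 per gene, above the value near 1 of counting noise alone.

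From these counts, the robust quasi-likelihood test of edgeR 4.0.16 (R 4.3.3) gave 2-sided p-values after TMM scaling and edgeR's own filter on low counts, adjusted by Benjamini-Hochberg over all genes tested and called under 0.05. LNCaP (24 libraries, 15519 genes), 42D (12, 15403) and all 36 (16564) were fitted separately. The SE is the log2 fold change over the root of F. Levels are CPM on TMM-adjusted totals. Members and lists were chosen with earlier results of these data known. The text names every called member up to the 12 of largest change, a panel of 10 members and the most changed list genes. Of 24 comparisons, 4 were added after values were seen. The test was checked on simulated counts.

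Alternatives were RLE scaling, no filter, a replicate block, DESeq2 1.42.0, only the libraries compared, and each library or both libraries of low mitochondrial share left out. Same-numbered libraries deviated together in all 3 pairs (r over 0.1) for R1881 against DMSO in F2 and both 42D lines, for LNCaP sgT33-5 with R1881, F2 with DMSO and 42D sgT33-5 with R1881 against NT3, and for LNCaP sgT33-5 against F2 with DMSO. Blocked values stand beside those results where a call changed. Promoter windows are from RefSeq (GRCh38.p14).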

Additional observations from a re-analysis of the deposited data

Results flagged for a closer look

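A few differences between groups passed a test of the difference itself. The log2 fold change of CDH26 with R1881 in 42D NT3 minus that in LNCaP NT3 was -0.63, a larger fall in 42D, and the call ended without any one of 11 of the 12 libraries (edgeR adjusted p 0.0533 to 0.145).

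Between LNCaP sgT33-5 and F2, which carry the same guide name, log2 fold changes with DMSO were 3.45 for PCDH7, 2.28 for CDH26, 1.53 for CDH7, -1.17 for PCDH11X, -0.75 for PCDH1 and -0.44 for PCDH11Y, whose libraries overlapped. With R1881 they were 3.31 for PCDH7, 2.26 for CDH26, 1.55 for CDH7, -1.60 for PCDH11X, 1.004 for CTNNA2 and -0.26 for CDH1. The PCDH11Y call ended without LNCaP sgT33-5 DMSO replicate 2 or 3 or F2 DMSO replicate 2 (edgeR adjusted p 0.0532 to 0.323), with no filter, with DESeq2, without both libraries of low mitochondrial share and with the libraries compared alone (0.0533 to 0.266). The CTNNA2 call ended without LNCaP sgT33-5 R1881 replicate 3 or F2 R1881 replicate 2 or 3 (0.0825 to 0.218), with DESeq2 (0.0716) and with the libraries compared alone (0.0992), and the CDH1 call with the libraries compared alone (0.0791).

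The effect of the guide against NT3 was lower in 42D than in LNCaP, with a difference of -1.52 for PCDH7 and -0.76 for CDH26 with DMSO and of -1.07 for CDH26 with R1881. The level from which each effect is measured differed, since NT3 with DMSO held 52.2 to 64.6 CPM of PCDH7 in 42D and 0.818 to 1.15 CPM in LNCaP.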

How the results depend on the processing

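Of the 94 calls of members, 69 held under every alternative in which the member was tested, 25 were lost in at least 1, and 0 changed direction. With only the libraries compared, 92 of the 94 could be tested. With the replicate block, 4 members were called in the F2 response, 4 in LNCaP sgT33-5 against NT3 with DMSO, 6 in C2 and 9 in F2 with DMSO, 11 in F2 with R1881, 1 in the difference of the 42D sgT33-5 response, 2 in that of the 42D and LNCaP responses, and 3 in the difference of the guide effect with R1881. The block ended no call of a member, and every library correlated best with libraries of its own number, a hint from the data and not the design. Without a filter, C2 with DMSO had 5 and the difference of the guide effect with R1881 had 3, which DESeq2 also gave. With only the libraries compared, the F2 response had 1, and the difference of the guide effect had 1 with DMSO and 3 with R1881. The cause was not tested. Leaving out single libraries gave counts of 2 to 4 in the LNCaP NT3 response, 3 to 6 in LNCaP sgT33-5, 2 to 3 in C2, 1 to 3 in F2, 8 to 9 in 42D NT3 and 7 to 8 in 42D sgT33-5. Against NT3 the counts were 2 to 3 (DMSO) and 2 (R1881) in LNCaP sgT33-5, 2 to 3 and 4 in C2, 4 to 7 and 4 to 6 in F2, and 1 and 1 to 2 in 42D sgT33-5. They were 22 to 24 for 42D against LNCaP, 0 to 2 for the difference of their responses, 5 to 7 for LNCaP sgT33-5 against F2 at either treatment, and 1 to 2 and 1 to 3 for the difference of the guide effect. All libraries together gave 21 for 42D against LNCaP and 5 for C2 against NT3 with R1881, outside these ranges. The filter on low counts was applied anew in each fit, so the members tested could differ. Depth limits the members near 1 CPM or less, among them CTNNA2 in LNCaP with DMSO, CDH12, CDH2 and most clustered protocadherins.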
